A study of Mus musculus with 4 samples.

Results

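The AP-1 and immediate early genes were examined in J558 allografts. The group comprised Fos, Fosb, Fosl1, Fosl2, Jun, Junb, Jund, Egr1, Atf3 and Ier2, and its rows were found by gene symbol. The genes were chosen with earlier results of these data known. All 10 symbols were found among the 24421 gene rows of the count tables. Bulk RNA sequencing was performed on tumours of female BALB/c mice that carried J558, a mouse plasma cell tumour line labelled as B lymphocyte, under the skin of the flank. The Vehicle group (libraries Vehicle-1 and Vehicle-2) received 0.5% methylcellulose by mouth, and the TAK-931 group (libraries TAK-931-1 and TAK-931-2) received TAK-931, an inhibitor of the replication kinase CDC7, at 60 mg/kg, once daily for 6 days. The hosts kept an intact immune system, J558 is 1 cell line, and each whole tumour holds J558 cells together with host cells. Each library came from its own tumour, and the labels give no age of the mice and no batch.

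AP-1 is a family of transcription factor dimers that bind DNA through a basic region and pair through a leucine zipper. JUN proteins pair with each other, with FOS proteins or with ATF proteins, whereas FOS proteins need a partner from outside their own family. Fos, Fosb, Jun, Junb, Egr1, Atf3 and Ier2 are classical immediate early genes: existing transcription factors such as SRF, ELK and CREB switch them on within minutes of a growth factor, cytokine or stress signal that travels through MAP kinases, and their transcripts are short-lived. Jund is expressed more steadily in many tissues. AP-1 is well known in activated T cells, where it acts with NFAT, in macrophages and in fibroblasts, so a bulk tumour can draw these transcripts from several cell types. In such bulk libraries, fewer cells of a type and less RNA per cell cannot be told apart.

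The upstream sequences of the members that differed most in size between the groups are shown first, because promoter elements are the known route by which early genes are switched on. These genes and the motifs were chosen after the values were seen. RefSeq promoter windows (GRCm38.p6, 250 bases before to 50 bases after the annotated start) were matched for 7 of the 10 members, and Fosl1, Egr1 and Ier2 had no entry. The 250 bases before the start are printed 5′ to 3′ on the gene's strand for Fos (chr12:85473640-85473889, + strand), Atf3 (chr1:191183334-191183583, − strand), Fosl2 (chr5:32136222-32136471, + strand) and Jund (chr8:70697489-70697738, + strand). On either strand, capitals mark TGACGT, which is the core of the cyclic AMP response element (CRE). They also mark GGGCGG, which is known as the GC box and is bound by the factor SP1. The third motif in capitals, TATAAA, is a TATA box.
Fos: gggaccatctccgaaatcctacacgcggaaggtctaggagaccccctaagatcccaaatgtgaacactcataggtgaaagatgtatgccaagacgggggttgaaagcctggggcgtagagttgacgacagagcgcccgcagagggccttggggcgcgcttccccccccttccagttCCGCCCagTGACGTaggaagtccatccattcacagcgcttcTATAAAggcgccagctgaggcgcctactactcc
Atf3: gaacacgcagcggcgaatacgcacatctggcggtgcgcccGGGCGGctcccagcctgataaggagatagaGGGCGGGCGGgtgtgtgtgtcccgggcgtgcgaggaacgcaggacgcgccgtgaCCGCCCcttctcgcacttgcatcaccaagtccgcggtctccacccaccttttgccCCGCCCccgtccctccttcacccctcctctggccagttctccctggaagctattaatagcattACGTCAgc
Fosl2: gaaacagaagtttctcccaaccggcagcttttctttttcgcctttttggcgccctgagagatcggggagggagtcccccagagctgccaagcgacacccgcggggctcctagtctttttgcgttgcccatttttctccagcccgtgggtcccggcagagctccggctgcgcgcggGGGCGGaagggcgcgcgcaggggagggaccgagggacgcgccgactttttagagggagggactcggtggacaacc
Jund: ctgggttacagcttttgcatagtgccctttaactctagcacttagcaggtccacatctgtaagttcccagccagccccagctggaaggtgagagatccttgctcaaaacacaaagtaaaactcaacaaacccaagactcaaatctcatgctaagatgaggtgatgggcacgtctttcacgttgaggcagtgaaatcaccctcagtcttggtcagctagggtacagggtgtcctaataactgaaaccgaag

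Among the 7 matched members, TGACGT was present in Fos and Atf3, against 7.51% of all 32851 windows of this length. GGGCGG was present in Fos, Fosb, Fosl2, Jun and Atf3, against 35.7% of all windows. TATAAA was present in Fos and Junb, against 13.6%. It lay 33 bases before the start in Fos, whereas in Junb it began at the annotated start and not before it. The full CRE (TGACGTCA, which contains TGACGT), the AP-1 site (TGANTCA) and the CArG box bound by SRF had no match in the 7 windows, whereas 1.79%, 7.81% and 1.63% of all windows held them. The EGR site (GCGNGGGCG, which can overlap a GC box) was present in Fosb and Fosl2, against 5.55% of all windows. A relaxed CRE (TGACNTCA) was present in Jun, against 8.83%. The window of Jund held none of the marked motifs and had a GC content of 47.6%, against 58.4% for Fos, 64.4% for Fosl2 and 65.2% for Atf3. Each window follows the annotated start. Where transcription began in these tumours was not examined, so this contrast may not hold for the promoters in use. A match is a description of these letters and does not show that a factor was bound. Sites more than 250 bases before the start were not searched. The absence of a match therefore does not show that a gene lacks the site.

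Library depth was between 16487902 and 19589339 counts. Levels are given as CPM, the count divided by the library's total and scaled to the same sum in every library. The limit set by a count of 0 (3 counts) was at most 0.182 CPM, for counting error only. The plasma cell and J558 markers, including Sdc1, Xbp1, Jchain and the tumour antigen Trap1a, were detected in all 4 libraries. TAK-931-1 stood apart: the summed CPM of these 9 markers was 14813 and 15130 in the Vehicle libraries, against 5796 (TAK-931-1) and 18342 (TAK-931-2). Because the TAK-931 libraries differed this much, levels of the members are given for both of them.

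The clearest differences were higher Fos, Fosl2 and Atf3 and lower Jund in TAK-931-treated allografts. Of the 10 members, 6 lay higher and 2 lay lower in both TAK-931 libraries than in both Vehicle libraries among the 9 that passed the filter on low counts, and Jun overlapped. No member passed an adjusted p of 0.05 in edgeR's quasi-likelihood test, nor did any of the 13669 genes tested (0%), and the lowest adjusted p over all genes was 0.275. At an unadjusted p under 0.05, 4 members were higher (Fos, Fosl2, Junb, Atf3) and 2 were lower (Jund, Ier2), where 11.6% and 6.55% of all tested genes were (18.1% in all). Groups did not overlap in 61.9% of all tested genes, 31.3% higher and 30.6% lower, so the absence of overlap in single members is common in these data.

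**Figure D1:**
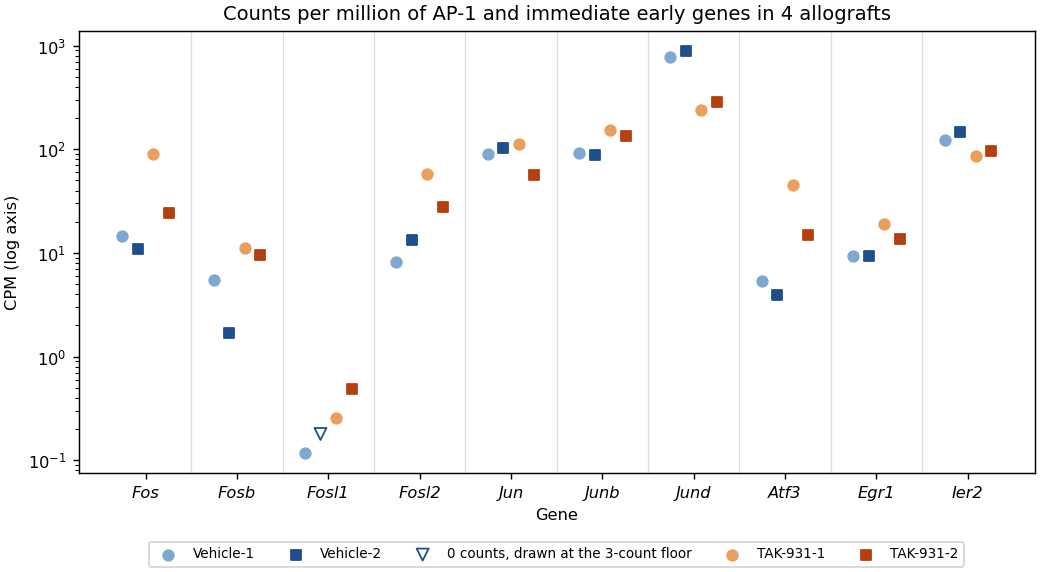
CPM (log axis) of the 10 genes in each library, with Vehicle in blue and TAK-931 in orange; circles are libraries numbered 1 and squares libraries numbered 2, and the open triangle is a count of 0 drawn at the floor of 3 counts. Fos, Fosl2 and Atf3 sit higher in both TAK-931 libraries, with TAK-931-1 on top, whereas Jund sits between 238 and 286 CPM in the TAK-931 libraries and between 777 and 881 CPM in the Vehicle libraries.

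Within the FOS family, Fos, the founding member and a partner of JUN proteins (chromosome 12, 85473901 to 85477270, mm10, 4 exons), had 14.6 and 10.9 CPM in Vehicle-1 and Vehicle-2, against 89.9 CPM (TAK-931-1) and 24.1 CPM (TAK-931-2). Both TAK-931 libraries were above both Vehicle libraries, but TAK-931-1 was 3.73-fold above TAK-931-2. The means were 12.8 ± 2.61 CPM in Vehicle and 57.0 ± 46.5 CPM in TAK-931 (SD, n = 2), and the log2 fold change was 2.17 (SE 0.74, adjusted p = 0.275 in edgeR).

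Fosl2, which encodes FRA2, a FOS-related protein without the strong activation domains of FOS (chromosome 5, 32136472 to 32157839, 4 exons), had 8.23 and 13.3 CPM in the Vehicle libraries, against 57.5 CPM (TAK-931-1) and 27.8 CPM (TAK-931-2). The groups did not overlap, and TAK-931-1 was 2.07-fold above TAK-931-2. The fitted log2 fold change of Fosl2 was 1.99 (SE 0.53, adjusted p = 0.275 in edgeR). Fosb, an inducible FOS gene (chromosome 7, 19302696 to 19310045, 4 exons), had 5.53 and 1.67 CPM in the Vehicle libraries, against 11.2 CPM (TAK-931-1) and 9.64 CPM (TAK-931-2). Its TAK-931 libraries were close to each other and its Vehicle libraries were 3.30-fold apart, so here the spread lay within Vehicle. The log2 fold change of Fosb was 1.52 (SE 0.72, adjusted p = 0.310 in edgeR).

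Fosl1, which encodes FRA1, a FOS protein best known in invasive epithelial and mesenchymal tumours (chromosome 19, 5447698 to 5455938, 4 exons), had 2 and 0 counts in the Vehicle libraries, against 5 (TAK-931-1) and 8 (TAK-931-2). It did not pass the filter and was not tested. Its Vehicle libraries were at or under the floor of 3 counts, so no fold is given, and exons of Ccdc85b on the opposite strand overlap it.

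The 3 JUN genes have a single exon each and did not lie in the same direction. Jund (chromosome 8, 70697739 to 70700616), the steadily expressed member, had 777 and 881 CPM in the Vehicle libraries, against 238 CPM (TAK-931-1) and 286 CPM (TAK-931-2). Every TAK-931 library was far below every Vehicle library, and the TAK-931 libraries differed by 1.20-fold. Against the mean of the Vehicle libraries, Jund was lower by 3.48-fold (TAK-931-1) and 2.90-fold (TAK-931-2). Its means were 829 ± 73.3 CPM in Vehicle and 262 ± 34.2 CPM in TAK-931 (SD, n = 2), and its log2 fold change was −1.68 (SE 0.24, adjusted p = 0.275 in edgeR). Only 12 of the 13669 tested genes had a smaller p in this fit, and 147 were at least as high as Jund in mean CPM of the Vehicle libraries, Jund included.

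Junb, which encodes a JUN protein that often acts as a weaker activator and opposes JUN in proliferation (chromosome 8, 84976909 to 84978748), gave 92.2 and 88.7 CPM in the Vehicle libraries, against 155 CPM (TAK-931-1) and 133 CPM (TAK-931-2). The groups did not overlap and both pairs were close. Its log2 fold change was 0.66 (SE 0.23, adjusted p = 0.275 in edgeR). Jun, the strongest activator of the family (chromosome 4, 95049036 to 95052222), gave 89.8 and 103 CPM in the Vehicle libraries, against 112 CPM (TAK-931-1) and 56.9 CPM (TAK-931-2). The TAK-931 libraries lay on opposite sides of the Vehicle libraries, and the log2 fold change of −0.18 (SE 0.42) was smaller than its SE.

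Atf3, a stress-induced partner and repressor in the ATF family (chromosome 1, 191170297 to 191183333, 4 exons), had 5.41 and 3.89 CPM in the Vehicle libraries, against 45.0 CPM (TAK-931-1) and 14.7 CPM (TAK-931-2). Both TAK-931 libraries were above both Vehicle libraries, by 9.67-fold and 3.17-fold relative to the Vehicle mean. Its log2 fold change of 2.69 (SE 0.70, adjusted p = 0.275 in edgeR) was the largest among the members.

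Egr1, a zinc finger factor of the early growth response (chromosome 18, 34861207 to 34864956, 2 exons), had 9.29 and 9.33 CPM in the Vehicle libraries, against 18.9 CPM (TAK-931-1) and 13.7 CPM (TAK-931-2). The groups did not overlap, and the log2 fold change was 0.80 (SE 0.39, adjusted p = 0.311 in edgeR). Ier2, an early response gene of 1 exon (chromosome 8, 84661331 to 84662852), gave 123 and 148 CPM in the Vehicle libraries, against 86.0 CPM (TAK-931-1) and 95.2 CPM (TAK-931-2). It was lower in both TAK-931 libraries, with a log2 fold change of −0.60 (SE 0.22, adjusted p = 0.275 in edgeR).

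**Figure D2:**
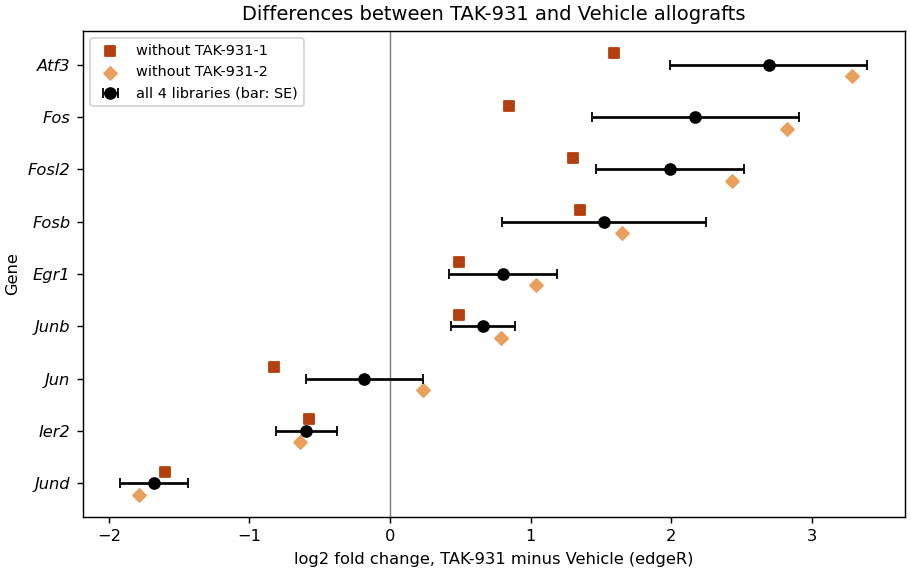
Log2 fold change of TAK-931 against Vehicle (x axis) for the 9 tested members, with the SE as a bar for all 4 libraries and coloured marks for the fits without TAK-931-1 or without TAK-931-2. Jund and Ier2 stay at nearly the same value in each fit, whereas Fos and Atf3 spread widely and Jun lies at −0.83 and 0.24, on both sides of 0.

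Single libraries decided the size of several differences. Without TAK-931-1, the log2 fold change was 0.84 for Fos, 1.30 for Fosl2, 1.60 for Atf3, 0.49 for Egr1 and −0.83 for Jun. Without TAK-931-2, that of Jun was 0.24. The value for Fosb was 2.63 when Vehicle-1 was left out and 0.88 when Vehicle-2 was. Jund stayed between −1.79 and −1.60 and Ier2 between −0.71 and −0.48 over the 4 fits that left out 1 library. At an unadjusted p under 0.05, 3 members were past the threshold without Vehicle-1 and 4 without Vehicle-2, where 6.86% and 6.98% of all genes were, and 7 without TAK-931-1 and 7 without TAK-931-2, where 40.8% and 63.1% were. With a single TAK-931 library, whose spread is then assumed to equal that of Vehicle, 7 members passed an adjusted p of 0.05 in edgeR in either fit, where 28.7% of all genes did without TAK-931-1 and 58.1% without TAK-931-2. DESeq2, with all 4 libraries, called Fos, Fosl2, Jund and Atf3, where it called 10.3% of all tested genes. Its adjusted p was 0.0219, 0.00756, 2.38e-05 and 0.00240 in that order, and over the alternatives other than leaving out a library the highest was between 0.342 and 0.359.

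Levels were then compared between genes per length, as TPM (counts per kilobase of exon, scaled to the same total in each library). In Vehicle, the order of mean TPM was Jund (513), Ier2 (159), Junb (87.6), Jun (53.9), Fos (10.9), Egr1 (5.40), Atf3 (4.19), Fosl2 (3.26), Fosb (1.70) and Fosl1 (0.0618). Atf3 overlapped Fosl2 and Fosl2 overlapped Fosb between the libraries, and the other neighbours in this order did not overlap. In TAK-931, the order was Jund (169), Junb (145), Ier2 (111), Fos (50.4), Jun (49.2), Atf3 (28.0), Fosl2 (13.5), Egr1 (9.85), Fosb (5.13) and Fosl1 (0.404). Here Jund and Junb overlapped, as did each pair of neighbours from Fos to Egr1.

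The make-up of the AP-1 transcript pool was compared next. Jund made up 75.4% and 77.6% of the summed TPM of the 7 FOS and JUN genes in Vehicle-1 and Vehicle-2, against 32.1% (TAK-931-1) and 47.7% (TAK-931-2). The FOS family made up 2.77% and 2.01% in the Vehicle libraries, against 21.7% (TAK-931-1) and 9.14% (TAK-931-2). Junb made up 14.0% and 12.2% in the Vehicle libraries, against 32.6% (TAK-931-1) and 34.6% (TAK-931-2). The groups did not overlap in any of these shares.

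The mean FOS-family share was 2.39% ± 0.537 in Vehicle and 15.4% ± 8.86 in TAK-931 (SD, n = 2), with an exact permutation p of 0.333, two-sided, the smallest p that this design can give. The summed TPM of the 7 genes was 642 and 699 in the Vehicle libraries, against 475 (TAK-931-1) and 391 (TAK-931-2). Without Jund, the sum was 158 and 157 in the Vehicle libraries, against 323 (TAK-931-1) and 204 (TAK-931-2). The sum was thus lower in both TAK-931 libraries with Jund counted and higher in both with Jund left out. Without TAK-931-1, the mean FOS-family share in TAK-931 exceeded that in Vehicle by 6.75 percentage points, against 13.0 with all libraries.

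**Figure D3:**
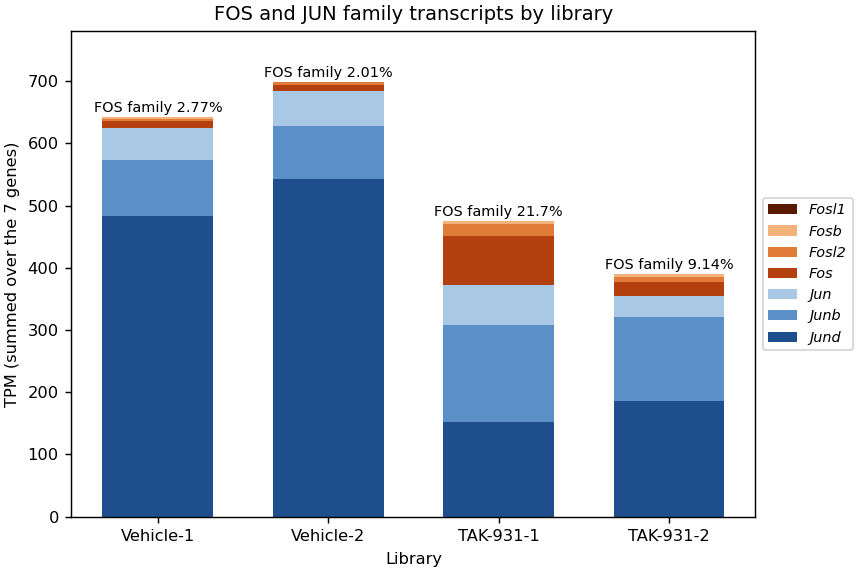
Stacked bars of the TPM of the 7 FOS and JUN family genes in each library, starting at 0, with the FOS-family share printed above each bar. The dark blue Jund segment takes 75.4% and 77.6% of the Vehicle bars and 32.1% and 47.7% of the TAK-931 bars.

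Markers of host cells were higher in the same libraries, and their counts are read against the 31.3% of all tested genes that were higher in both TAK-931 libraries. The summed CPM of 10 T cell markers was 70.4 and 76.6 in the Vehicle libraries, against 1757 (TAK-931-1) and 179 (TAK-931-2), and all 10 markers were higher in both TAK-931 libraries. That of 10 monocyte and macrophage markers was 629 and 533 in Vehicle, against 8957 (TAK-931-1) and 1719 (TAK-931-2), with 9 of 10 markers higher in both. That of 8 fibroblast markers was 1868 and 2137 in Vehicle, against 14351 (TAK-931-1) and 5308 (TAK-931-2), with 7 of 8 higher in both. These lists are large in the same libraries in which Fos, Fosl2 and Atf3 are high, and their part in those differences was not tested.

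Among the smaller lists, 5 of 6 NK cell markers were higher in both TAK-931 libraries, with a summed CPM of 31.3 and 17.6 in Vehicle, against 163 (TAK-931-1) and 50.9 (TAK-931-2), with Klra8 at 0 in every library and Klrb1c at 0 in Vehicle-2. Of 8 endothelial markers, 3 were higher in both, with sums of 305 and 336 in Vehicle, against 981 (TAK-931-1) and 322 (TAK-931-2). Of 6 neutrophil markers, 1 was, with sums of 6.35 and 7.90 in Vehicle, against 126 (TAK-931-1) and 17.1 (TAK-931-2), with Cxcr2 and Retnlg at 0 in Vehicle-1, Retnlg at 0 in Vehicle-2, and S100a8, Cxcr2 and Retnlg at 0 in TAK-931-2. The 8 skeletal muscle markers were 99.4 and 99.7 CPM in Vehicle, against 741 (TAK-931-1) and 18.3 (TAK-931-2), with Myh1 and Myl1 at 0 in TAK-931-2.

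The level of Jund was set beside the plasma cell markers. Their summed CPM was 2.58-fold below that of Vehicle (mean) in TAK-931-1, but 1.23-fold that mean in TAK-931-2, whereas Jund was lower in both libraries by a similar amount. Jchain alone gave 8445 CPM of the sum in TAK-931-2. The median log2 ratio of the markers to the Vehicle mean, with 0.1 CPM added to both, was −1.53 (TAK-931-1) and 0.22 (TAK-931-2). Of these 9 markers, 0 were higher and 3 were lower in both TAK-931 libraries (Sdc1, Xbp1 and Pou2af1), where 30.6% of all tested genes were lower in both, and 7 markers had a negative log2 fold change. The part of the share of tumour cells in the lower level of Jund was not tested. Ier2 was likewise lower in both, at ratios of 0.634 (TAK-931-1) and 0.702 (TAK-931-2) to the Vehicle mean.

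**Figure D4:**
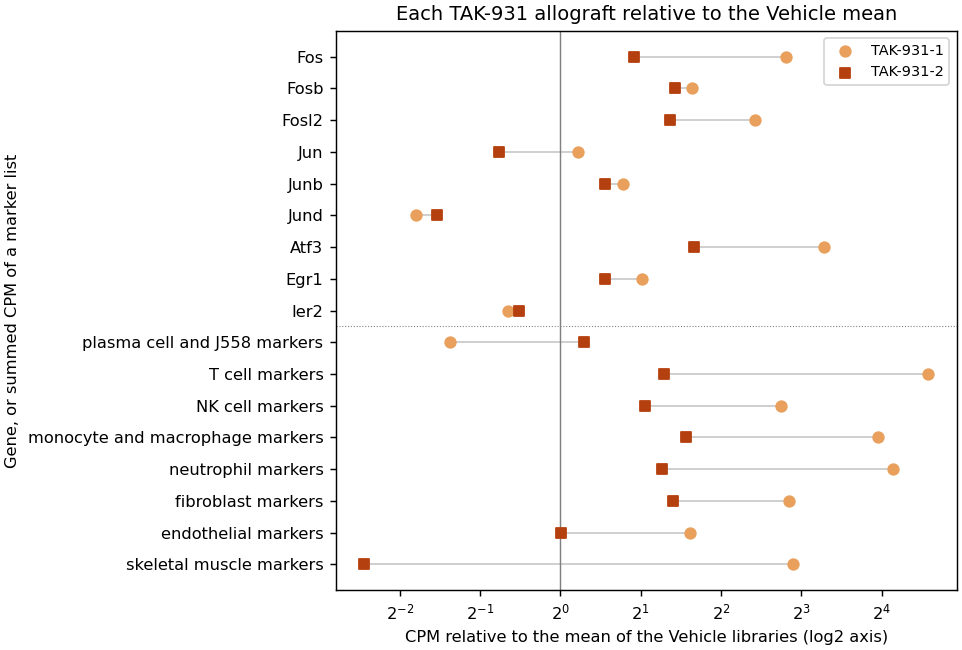
CPM in TAK-931-1 (circles) and TAK-931-2 (squares) relative to the Vehicle mean, on a log2 axis, for the 9 tested members above the dotted line and for the summed CPM of each marker list below it. Fos, Fosl2 and Atf3 lie to the right in both libraries and farther in TAK-931-1, as the T cell, macrophage and fibroblast lists do, whereas Jund lies to the left in both and the plasma cell list does so only in TAK-931-1.

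Base composition was examined for all members. The longest GENCODE transcript of Jund had a GC content of 67.1%, and Junb (62.6%) and Ier2 (60.9%) were, with it, among the 1317 tested genes highest in GC, 1 of 10 equal classes. This class had a median log2 fold change of 0.19, with 25.0% of its genes lower in both TAK-931 libraries. With per-library GC offsets, an alternative chosen after seeing the data, the log2 fold change was −1.49 for Jund, −0.77 for Ier2, 0.52 for Junb, −0.38 for Jun, 0.58 for Egr1 and 1.33 for Fosb. It was 2.08 for Fos and 1.89 for Fosl2, and each of the 9 tested members, Atf3 included, kept its sign. The part of GC content in the differences was not tested beyond these values. Jun and Jund each overlap an antisense gene (Junos and Gm11175), whose reads cannot be told apart because the strand setting is not given in the sources used here.

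The other genes of the pathway were described as lists by their counts and medians, beside the median log2 fold change of 0.02 over all 13669 tested genes and 0.80 over the 9 tested members. A median is also given for each TAK-931 library, of the log2 ratio of CPM to the Vehicle mean after 0.1 CPM was added to both. Over the 9 tested members it was 1.01 (TAK-931-1) and 0.55 (TAK-931-2). None of their genes passed an adjusted p of 0.05 in edgeR. The counts of genes at an unadjusted p under 0.05 are to be read against 11.6% higher and 6.55% lower in the background.

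Of 11 other AP-1 and bZIP partners, 3 were higher and 0 lower at an unadjusted p under 0.05, with a median log2 fold change of 1.43. The library medians were 2.11 (TAK-931-1) and 0.33 (TAK-931-2). Batf, which pairs with JUN proteins in activated lymphocytes, had 1.29 and 0.718 CPM in Vehicle, against 30.3 CPM (TAK-931-1) and 4.61 CPM (TAK-931-2). It was highest in TAK-931-1, where the summed CPM of each of the 7 host cell lists was highest too, and their part in the level of Batf was not tested. Atf2, a JUN partner that is regulated mainly by phosphorylation, had 54.1 and 53.7 CPM in Vehicle, against 45.3 CPM (TAK-931-1) and 73.6 CPM (TAK-931-2).

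Of 24 other early response genes, 8 were higher and 2 lower at an unadjusted p under 0.05, with a median of 1.13. The library medians were 1.41 (TAK-931-1) and 0.48 (TAK-931-2), whereas the summed CPM of the list was 0.649 (TAK-931-1) and 0.939 (TAK-931-2) of the Vehicle mean. Nr4a3, an orphan nuclear receptor induced by antigen receptor and other signals, had 0.470 and 0.120 CPM in Vehicle, against 7.15 CPM (TAK-931-1) and 3.88 CPM (TAK-931-2). Ptgs2, which encodes the inducible cyclooxygenase COX-2, had 0.706 and 0.837 CPM in Vehicle, against 18.4 CPM (TAK-931-1) and 9.04 CPM (TAK-931-2). In the opposite direction, Rhob, a growth factor-induced small GTPase, had 1508 and 1653 CPM in Vehicle, against 441 CPM (TAK-931-1) and 685 CPM (TAK-931-2). Gadd45b, a stress sensor upstream of p38 and JNK, had 176 and 173 CPM in Vehicle, against 89.3 CPM (TAK-931-1) and 109 CPM (TAK-931-2). The early response genes thus lay in both directions, with Rhob and Gadd45b lower in both TAK-931 libraries, as Jund and Ier2 were.

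Of 14 feedback inhibitors of the MAP kinase and early gene response, 4 were higher and 0 lower at an unadjusted p under 0.05, with a median of 1.02. The library medians were 1.22 (TAK-931-1) and 0.50 (TAK-931-2). Zfp36l1, which directs the decay of AU-rich transcripts, had 58.8 and 63.8 CPM in Vehicle, against 215 CPM (TAK-931-1) and 135 CPM (TAK-931-2). Dusp4, a phosphatase of nuclear MAP kinases, had 1.18 and 0.538 CPM in Vehicle, against 12.9 CPM (TAK-931-1) and 3.46 CPM (TAK-931-2). Dusp16, a phosphatase of JNK and p38, lay the other way, with 76.2 and 67.5 CPM in Vehicle, against 23.4 CPM (TAK-931-1) and 57.7 CPM (TAK-931-2).

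Of 15 genes known as AP-1 targets, 6 were higher and 0 lower at an unadjusted p under 0.05, with a median of 1.57. The library medians were 2.21 (TAK-931-1) and 0.56 (TAK-931-2). Fasl, the death ligand of activated T cells, had 0 and 0.479 CPM in Vehicle, against 18.5 CPM (TAK-931-1) and 3.64 CPM (TAK-931-2). Il2ra, the high-affinity subunit of the interleukin-2 receptor, had 0.706 and 0.120 CPM in Vehicle, against 26.3 CPM (TAK-931-1) and 3.52 CPM (TAK-931-2). Vim, the intermediate filament gene of mesenchymal and immune cells, had 277 and 283 CPM in Vehicle, against 1596 CPM (TAK-931-1) and 394 CPM (TAK-931-2). T cells and mesenchymal cells, whose markers were higher in the same libraries, are known to express these genes, and their part in the differences was not tested. Cd44, a hyaluronan receptor, was the only gene of the list with a negative log2 fold change (−0.47, SE 0.27), with 527 and 493 CPM in Vehicle, against 301 CPM (TAK-931-1) and 446 CPM (TAK-931-2).

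Of 18 upstream kinases and factors, 1 was higher and 0 lower at an unadjusted p under 0.05, with a median of 0.16. The library medians were 0.25 (TAK-931-1) and −0.04 (TAK-931-2). Mrtfa, a coactivator of SRF that is named Mkl1 in the tables, had 26.3 and 25.4 CPM in Vehicle, against 60.9 CPM (TAK-931-1) and 43.7 CPM (TAK-931-2). Mapk8, which encodes JNK1, the kinase of JUN, had 130 and 127 CPM in Vehicle, against 38.2 CPM (TAK-931-1) and 87.0 CPM (TAK-931-2). These transcript levels do not report on kinase activity.

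The integrated stress response was listed because Atf3 is known as a target of its factor ATF4. Of the 10 listed genes, 0 were higher and 4 lower at an unadjusted p under 0.05, with a median log2 fold change of −0.91. In this list 6 genes were lower in both TAK-931 libraries and 3 overlapped. The library medians were −0.96 (TAK-931-1) and −0.91 (TAK-931-2). The last gene, Vldlr, a lipoprotein receptor, had 0 and 16 counts in Vehicle, against 66 (TAK-931-1) and 16 (TAK-931-2), so TAK-931-1 carried its log2 fold change of 2.19 (SE 1.72). Nupr1, a small stress-induced chromatin protein, had a log2 fold change of 0.03 (SE 0.45). Atf4 had 639 and 592 CPM in Vehicle, against 187 CPM (TAK-931-1) and 326 CPM (TAK-931-2). Trib3, a pseudokinase induced by ATF4, had 73.5 and 51.3 CPM in Vehicle, against 2.45 CPM (TAK-931-1) and 5.09 CPM (TAK-931-2), with a log2 fold change of −4.08 (SE 0.47, adjusted p = 0.275 in edgeR). Chac1, a glutathione-degrading enzyme induced by ATF4, had 219 and 164 CPM in Vehicle, against 6.84 CPM (TAK-931-1) and 23.5 CPM (TAK-931-2). Atf4, Trib3 and Chac1 were lower in both TAK-931 libraries, while Atf3 was higher in both. These transcripts can come from different cells of the tumour, and the part of this response in the level of Atf3 was not tested.

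**Figure D5:**
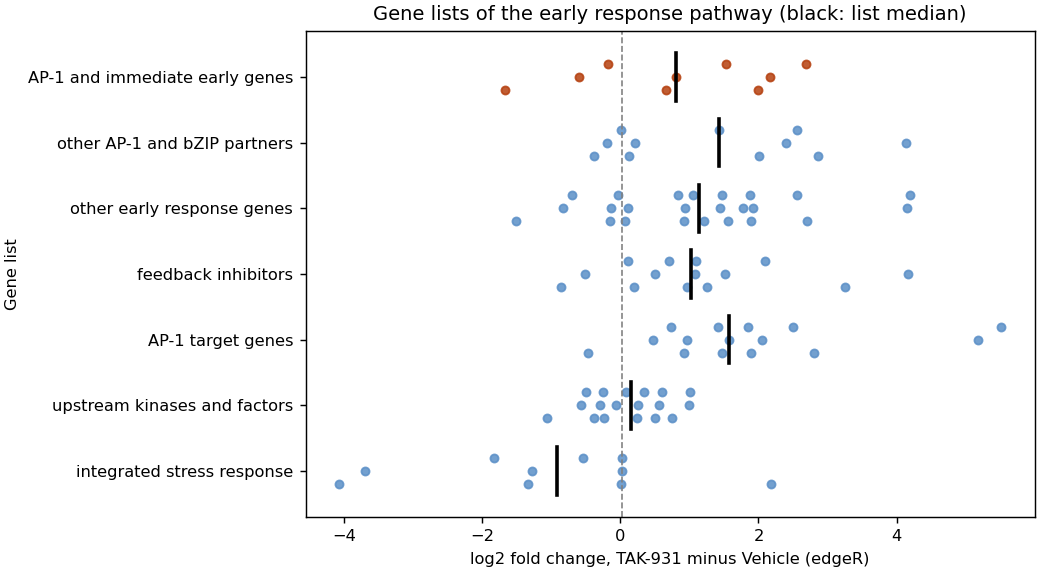
Log2 fold change of TAK-931 against Vehicle (x axis) for each tested gene of the 7 lists (1 point per gene, spread vertically for visibility only), with the list median as a black line and the median of all tested genes as a dashed line. The medians of 5 lists of pathway genes lie between 0.16 and 1.57, and that of the integrated stress response lies at −0.91.

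Genes with the pattern nearest to a member were found by the root mean square distance of centred log2 CPM over the 4 libraries, among 9734 tested genes with a mean log2 CPM over 3. For Fos these were Dock1, Acvrl1, Lgals9, Ptprm and Aim1, at distances of 0.03 to 0.07. For Atf3 they were Tnfrsf14, Phf11d, Tbc1d9, Sfrp1 and a gene whose symbol had been turned into a date, at 0.06 to 0.08. For Jun they were Dnal4, Pqlc1, Panx1, Engase and Tmem194b, at 0.03 to 0.07. For Jund, added after its values were seen, they were Oip5, Bmf, Pspc1, Cdpf1 and Klf11, at distances of 0.08 to 0.15. With only 4 libraries, likeness of pattern is weak as a description of any gene.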

How the data were processed

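RNA-seq of 4 J558 allografts was analysed. Per the labels, the authors aligned reads with STAR 2.6.1c to mm10 and counted them per gene with featureCounts; the deposited counts are raw, 1 table per tumour, from uniquely placed reads by the column names. Of the other deposited columns, exon length was used for TPM and the gene positions for coordinates. Strand and pair settings are not given in the sources used here. Odd numbers made up 17.9% to 23.9% of the counts from 1 to 20, so both mates may be counted and counting errors may be larger than the counts imply. Same-group libraries differed beyond sampling noise (chi-square per degree of freedom 8.22 and 276), and each was 1 replicate.

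Genes were kept with filterByExpr (minimum count 10; 13669 of 24421) and TMM scaled. TAK-931 was compared with Vehicle by the robust quasi-likelihood test of edgeR 4.0.16 (R 4.3.3), two-sided, with Benjamini-Hochberg adjusted p-values over all tested genes. Printed CPM used library totals alone. DESeq2 1.42.0, limma-voom (limma 3.58.1), other scalings and filters, halved counts, a replicate block, GC offsets and leaving out each library were alternatives. The tests were also run on simulated counts that had equal spread in both groups. These data did not, so that run does not show how the tests behave here. Promoter windows came from RefSeq, GC content and overlaps from GENCODE vM21; the motifs were chosen by hand. The members and lists were chosen with earlier results of these data known. Of each list, genes were eligible to be named if among the 2 highest in mean CPM or the 2 most positive or negative log2 fold changes; Xbp1, Trap1a and markers named for counts of 0 or for lying lower in both libraries were named outside this rule. Some genes of these lists are counted but not reported here by name.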

Additional observations from a re-analysis of the deposited data

How the results depend on the processing

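With all 4 libraries, 0 members passed an adjusted p of 0.05 in edgeR under every scaling and filter tried, with halved counts, without robust estimation, with GC offsets, with the replicate block and in limma-voom. The exception was DESeq2, which called 4. Leaving out 1 library gave between 0 and 7 called members, with 7 in each fit that kept a single TAK-931 library, and between 3 and 7 members at an unadjusted p under 0.05, against 6 with all libraries. With a single TAK-931 library, its spread was assumed to equal that of Vehicle, and the cause of these counts was not tested beyond that. The replicate block gave 4 members at an unadjusted p under 0.05, where 16.2% of all tested genes were, and 1.05% of all genes passed the adjusted threshold. Deviations of same-numbered libraries correlated at 0.02 across genes. This value cannot show whether they shared a batch, because the TAK-931 libraries differed far more than the Vehicle libraries did. Of 126 log2 fold changes of members under the alternatives, 107 kept their direction and their side of 0.05, 18 kept their direction and passed it, and 1 reversed: Jun, at 0.24 without TAK-931-2 and −0.83 without TAK-931-1. The number of members whose groups did not overlap was 8 with all 4 libraries under each scaling, where 61.9% of all tested genes did not overlap in CPM. It was 8 or 9 with 1 library left out. Overlap is then less likely, and no share over all genes was computed there. The FOS-family share was higher in TAK-931 by 13.0 percentage points, by 12.0 with Atf3 counted in the total and by 15.1 from counts with no length scaling. With 2 libraries a group and TAK-931 libraries this unlike, sizes are imprecise, and Fosl1 lay near the floor of 3 counts.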
